A study of Mus musculus with 2 samples.

Results

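Glycosaminoglycans are long sulfated sugar chains that cartilage cells build in the Golgi on the core proteins of proteoglycans such as aggrecan. The 45 genes examined encode the enzymes and transporters that start these chains, polymerize them as chondroitin or heparan, supply the sulfate and nucleotide sugars for them, and break them down in the lysosome. They were taken by name from a list drawn up for this family, and 44 of the 45 were found among the 13138 genes of the deposited table. Chst13, which encodes a chondroitin sulfotransferase, was the exception and was not analysed here. All 44 passed the abundance minimum that kept 12809 genes for comparison, a mean of 50 on the count scale.

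The study profiled RNA from primary mouse chondrocytes of strain C57Bl/6 kept as micromass cultures, which are dense drops of cells that lay down a cartilage-like matrix. One library came from cells given an adenovirus with Cre recombinase and is labelled Hdac3 knockout, and the other came from cells given a GFP control adenovirus and is labelled wild type. Both cultures therefore received a virus. The labels give no age, culture time, floxed allele or number of pooled animals, and whether the GFP cells carry the same Hdac3 allele is not stated.

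The values are log2 normalized counts, 1 per gene and library, and every difference below is Cre minus GFP on that scale. Folds and count-scale levels below are antilogs of these values. Any effect of the undescribed log transform on their size was not tested. With 1 library per group there is no replicate error and no test, and a difference describes this pair of libraries. For scale, 90% of all genes tested differed by less than 0.33 in either direction. Hdac3, the targeted gene, stood at 10.68 in the Cre-labelled library and 10.69 in the GFP-labelled library, so its total did not bear out the knockout label, and both libraries go by label here. The chondrocyte label fitted the markers: Col2a1, the collagen that makes up most cartilage fibrils, stood at 19.97 in the Cre-labelled library and 20.35 in the GFP-labelled library. Of 10 chondrocyte markers, 9 were in the table, and all 9 were lower in the Cre-labelled library, by 0.31 to 0.89. Their summed level was 20.53 in the Cre-labelled library and 20.97 in the GFP-labelled library, as log2 of the sum. All 8 macrophage markers were in the table, 6 of them higher and 2 lower, from 1.08 for Emr1 to -0.73 for Mrc1. Their summed level was 15.50 in the Cre-labelled library and 14.82 in the GFP-labelled library, with Lyz2 alone at 14.82 in the Cre-labelled library and 13.98 in the GFP-labelled library. In bulk RNA, fewer cells of a type and less RNA per cell cannot be told apart, and the part of either marker list in the differences below was not tested.

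As background, every chondroitin and heparan chain begins with xylose placed on a serine of the core protein, followed by a short linker. Polymerases then add alternating sugars, and sulfotransferases decorate them with sulfate taken from the donor PAPS, which the cell makes from imported sulfate. In cartilage the high sulfate density of aggrecan's chains holds water, and inherited defects of sulfate import or of PAPS synthesis impair skeletal growth in people and mice.

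The lowest values among the 44 genes were those of a pair of sulfate supply genes, and 18 of the 44 differed by less than 0.1 between the libraries. At 1.5-fold, a log2 difference of 0.58, 2 of 44 genes (4.55%) were lower in the Cre-labelled library, where 0.952% of all genes tested were. Both belong to the sulfate supply, Papss2 and Slc26a2. None of the 44 was higher by that fold, where 2.25% of all genes were. Past a difference of 0.322, a smaller fold, 5 of 44 (11.4%) were lower, against 4.36% of all genes, and 1 (2.27%) was higher, against 6.02%. Below 0 lay 26 of 44 (59.1%), against 50.1% of all genes. That share differed with abundance. At a mean level from 11 to 13, 12 of 23 members lay below 0, against 55.4% of all genes at that level. From 9 to 11, 8 of 15 did, against 47.1%, and at 13 or more 2 of 2 did, against 66.7%. From 7 to 9, 3 of 3 did (Chst3, Chst15 and Ust), against 48.5%. Below 7, 1 of 1 did (Chst7), against 48.4%. The median difference of the 44 was -0.06, with quartiles of -0.21 and 0.07, and that of all genes tested was -0.00041. Of the 44, 38 stayed within the range that holds 90% of all genes. By size alone, the median difference was 0.135 for the 44 and 0.0887 for all genes tested. These medians are not matched for abundance. Over all genes the differences had an SD of 0.23 from 9 to 11, 0.25 from 11 to 13 and 0.49 at 13 or more.

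**Figure D1:**
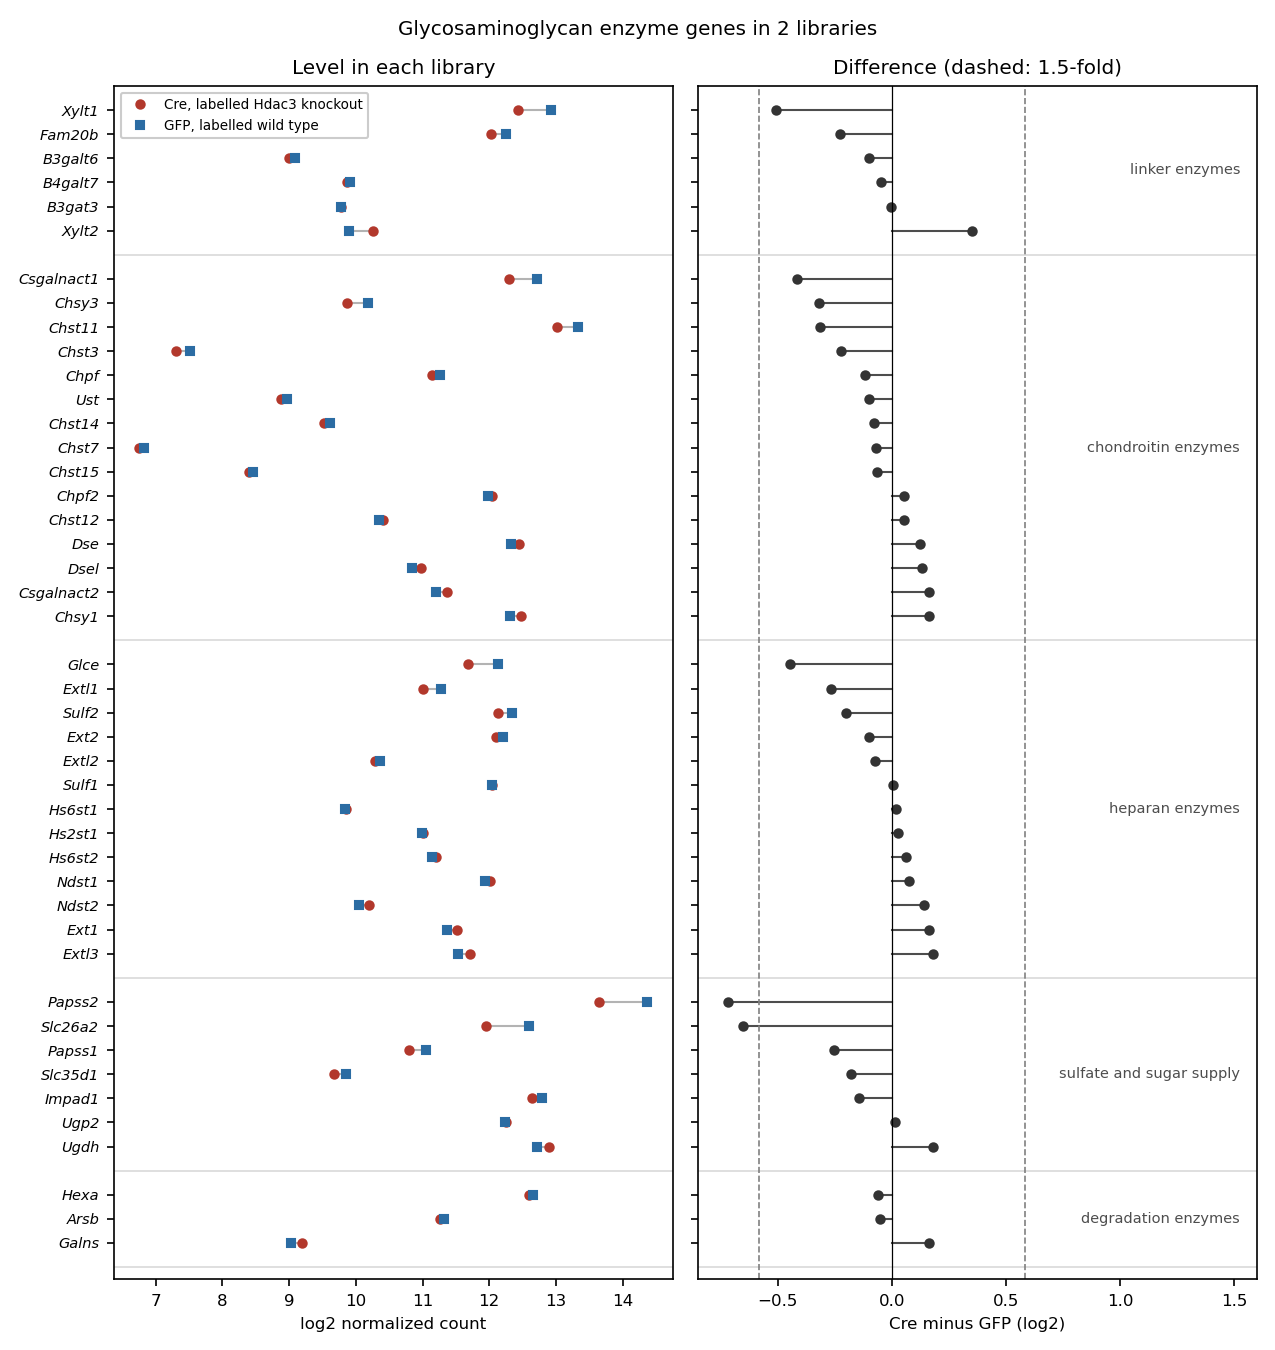
Level of each of the 44 genes as log2 normalized count in the Cre-labelled (circles) and GFP-labelled (squares) library on the left, and the Cre minus GFP difference on the right, grouped by role, with dashed lines at 1.5-fold. Papss2 and Slc26a2 lie beyond the lower line, at -0.72 and -0.65, and Xylt2 is the highest gene, at 0.35.

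Papss2 encodes the bifunctional enzyme that activates sulfate to PAPS and is the PAPS synthase known for its role in cartilage. Its log2 level was 13.65 in the Cre-labelled library and 14.37 in the GFP-labelled library. The difference of -0.72 was the lowest of the 44 genes and meant a level 1.65-fold higher in the GFP-labelled library. Of all genes tested, 0.492% had a lower difference, and of the 520 genes with a mean level of 13 or more 2.50% did. The gene lies on the plus strand of chromosome 19, from 32595790 to 32667187 (GRCm38), and no exon of another annotated gene overlaps its exons. Per kilobase of exon Papss2 was the most abundant of the 44 genes in both libraries, with 3461 normalized counts per kilobase in the Cre-labelled library and 5701 in the GFP-labelled library.

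Papss2 has a pair of annotated start sites, and the counts are totals over the gene, so which start the transcripts used cannot be told apart. Promoter windows of 300 bases, 250 before and 50 after the start, are shown for it, for the next lower genes with a window in the RefSeq table used (Glce and Chst11) and for the highest gene, Xylt2. They let the lower genes be set beside the higher one. All are RefSeq windows on GRCm38.p6 written 5′ to 3′ on the gene's strand. Capitals mark matches on either strand to GGGCGG (the GC box of Sp factors), AACAAT (a core of SOX sites), TATAAA (the TATA box), CACGTG (an E-box) and ACGTG, which overlaps CACGTG and is a core of hypoxia response elements.
Papss2, upstream start, plus strand, chr19:32595465-32595764: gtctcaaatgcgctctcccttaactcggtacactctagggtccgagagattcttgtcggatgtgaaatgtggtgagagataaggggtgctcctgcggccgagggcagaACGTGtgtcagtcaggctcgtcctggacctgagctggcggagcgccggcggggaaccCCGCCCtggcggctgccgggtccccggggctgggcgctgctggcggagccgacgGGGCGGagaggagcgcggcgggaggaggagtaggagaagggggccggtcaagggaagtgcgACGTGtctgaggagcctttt
Papss2, downstream start, plus strand, chr19:32619755-32620054: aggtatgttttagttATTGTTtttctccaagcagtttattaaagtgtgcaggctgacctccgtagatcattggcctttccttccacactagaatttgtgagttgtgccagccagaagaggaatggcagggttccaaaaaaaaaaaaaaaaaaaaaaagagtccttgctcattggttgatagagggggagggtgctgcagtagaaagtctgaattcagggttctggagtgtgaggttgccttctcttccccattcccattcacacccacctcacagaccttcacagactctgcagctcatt
Glce, minus strand, chr9:62122560-62122859: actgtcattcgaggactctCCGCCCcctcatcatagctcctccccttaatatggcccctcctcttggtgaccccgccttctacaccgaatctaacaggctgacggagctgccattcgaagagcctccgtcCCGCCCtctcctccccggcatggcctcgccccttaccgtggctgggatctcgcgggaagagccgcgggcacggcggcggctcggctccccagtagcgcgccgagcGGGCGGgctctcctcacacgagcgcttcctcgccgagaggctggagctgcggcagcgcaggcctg
Chst11, plus strand, chr10:82985247-82985546: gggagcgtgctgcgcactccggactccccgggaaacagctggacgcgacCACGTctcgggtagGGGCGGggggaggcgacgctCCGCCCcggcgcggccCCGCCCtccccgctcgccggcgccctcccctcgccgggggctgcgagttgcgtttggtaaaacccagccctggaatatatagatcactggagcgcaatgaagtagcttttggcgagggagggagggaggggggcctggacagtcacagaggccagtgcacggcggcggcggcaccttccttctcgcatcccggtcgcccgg
Xylt2, minus strand, chr11:94677444-94677743: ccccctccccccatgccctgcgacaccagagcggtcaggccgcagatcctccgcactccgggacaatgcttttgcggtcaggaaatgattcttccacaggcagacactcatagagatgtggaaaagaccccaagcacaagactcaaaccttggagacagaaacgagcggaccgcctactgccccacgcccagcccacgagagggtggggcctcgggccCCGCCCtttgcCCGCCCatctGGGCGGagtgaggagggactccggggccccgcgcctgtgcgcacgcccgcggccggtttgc

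The upstream Papss2 window was 66.3% G and C and held GGGCGG at 2 places and ACGTG at 2 places. The downstream one was 44.3% G and C, held no GGGCGG and held AACAAT once, as its reverse complement. Glce, Chst11 and Xylt2 each held GGGCGG at 3 places, so the lower genes and the higher one shared this motif. Chst11 also held ACGTG once. Neither TATAAA nor CACGTG occurs in the 5 windows. Over the table, 34 of the 44 genes had 43 windows. GGGCGG stood in 69.8% of those 43, in 62.2% of 11746 windows of the genes tested and in 35.7% of all 32851 windows. For AACAAT the shares were 9.30%, 5.71% and 10.7%, for ACGTG 25.6%, 24.9% and 19.6%, for CACGTG 9.30%, 9.83% and 7.15%, and for TATAAA 4.65%, 7.28% and 13.6%. The short ETS core GGAA, not marked in capitals, was in 97.7%, 95.4% and 96.0%.

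Slc26a2 encodes the plasma membrane sulfate transporter whose loss causes diastrophic dysplasia in people. It had 11.95 in the Cre-labelled library and 12.60 in the GFP-labelled library, a difference of -0.65, or a level 1.57-fold higher in the GFP-labelled library. Of all genes tested 0.687% had a lower difference, as did 0.976% of the 2665 genes with a mean level from 11 to 13. The gene lies on the minus strand of chromosome 18, from 61192919 to 61211612 (GRCm38). Among the 25 members with a mean level of 11 or more, these 2 sulfate genes were the ones past 1.5-fold, and 1.63% of all genes that abundant were lower by that fold. None of the 19 less abundant members was.

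The other steps of sulfate supply were lower by less. Papss1, the second PAPS synthase, had 10.80 in the Cre-labelled library and 11.05 in the GFP-labelled library, a difference of -0.26. Impad1 encodes the Golgi phosphatase that clears the by-product of PAPS use, and it had 12.65 and 12.79 in the Cre-labelled and GFP-labelled libraries, a difference of -0.14. Slc35b2, the main Golgi importer of PAPS and not on the list of 45, had a difference of -0.05. Thus every one of these sulfate genes had a value below 0, as did 50.1% of all genes tested. Papss1, Impad1 and Slc35b2 stayed within the range that holds 90% of all genes. The ones past 1.5-fold were the transporter and Papss2. The sugar supply genes of the group were spread over both signs. Ugdh, which makes the UDP-glucuronate used for every chain, had 12.89 in the Cre-labelled library and 12.71 in the GFP-labelled library, a difference of 0.18. Ugp2, which makes the UDP-glucose that Ugdh oxidizes, was level, with a difference of 0.01. Slc35d1, the carrier of UDP-sugars into the endoplasmic reticulum that cartilage needs, was at 9.67 in the Cre-labelled library and 9.85 in the GFP-labelled library, a difference of -0.18. The median of the 7 supply genes was -0.18.

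In the linker group of 6 genes, the isoenzymes that add the first xylose went in opposite directions. Xylt1 had 12.42 in the Cre-labelled library and 12.93 in the GFP-labelled library, a difference of -0.51. It lies on chromosome 7, from 117380979 to 117673580 on the plus strand (GRCm38), and a point mutation in it causes dwarfism in the pug mouse. Xylt2 had 10.25 in the Cre-labelled library and 9.90 in the GFP-labelled library, a difference of 0.35, the highest of the 44. It lies on chromosome 11, from 94663851 to 94677515 on the minus strand. Neither reached 1.5-fold. Xylt1 had 1.44% of all genes below it, and Xylt2 5.52% of the genes with a mean level from 9 to 11 above it.

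The kinase and the later linker transferases differed less than the xylosyltransferases. Fam20b, the kinase that phosphorylates the xylose, had 12.02 in the Cre-labelled library and 12.25 in the GFP-labelled library, a difference of -0.23. The galactosyltransferase genes B4galt7 and B3galt6 differed by -0.05 and -0.10. B3gat3, which adds the glucuronate that completes the linker, stood at 9.77 in the Cre-labelled library and 9.78 in the GFP-labelled library, and the sign of its difference of -0.0047 turned under scaling to equal totals. The group median was -0.07, with 5 of 6 genes below 0.

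The 15 measured chondroitin genes had a median of -0.07, with 9 below 0 and none past 1.5-fold. With a minimum 10 times higher, which left 11 of them, the median turned to 0.052. Csgalnact1 encodes the transferase that commits a linker to chondroitin by adding the first N-acetylgalactosamine. It had 12.30 in the Cre-labelled library and 12.71 in the GFP-labelled library, a difference of -0.42, the lowest of this group (chromosome 8, 68356781 to 68735146, minus strand). Its paralogue Csgalnact2 had 11.36 in the Cre-labelled library and 11.20 in the GFP-labelled library, a difference of 0.16. As with the xylosyltransferases, the isoenzyme more abundant per kilobase of exon was lower and the other one higher.

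Polymerization genes were split too. Chsy1, the main chondroitin synthase, had 12.48 in the Cre-labelled library and 12.31 in the GFP-labelled library, a difference of 0.16. Chsy3, another synthase, had 9.87 in the Cre-labelled library and 10.19 in the GFP-labelled library, a difference of -0.321, just short of 0.322. Here the gene less abundant per kilobase was the lower one. The polymerizing factor genes Chpf and Chpf2 differed by -0.12 and 0.05. Exons of Smarcd3 on the opposite strand cover 44.1% of the exonic length of Chpf2, and without a stated strand setting its reads cannot be told apart from those of Smarcd3.

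Among the sulfotransferases of chondroitin, Chst11 had the highest level per kilobase of exon and the lowest difference. It encodes the 4-O-sulfotransferase that mouse growth plate cartilage requires, and it had 13.02 in the Cre-labelled library and 13.33 in the GFP-labelled library, a difference of -0.32 (chromosome 10, 82985498 to 83195900, plus strand). Of the 520 most abundant genes 10.6% had a lower difference, so a difference of this size was common at its abundance. Chst12, the second 4-O-sulfotransferase, differed by 0.05. Chst3, the main 6-O-sulfotransferase, was at 7.30 in the Cre-labelled library and 7.52 in the GFP-labelled library, a difference of -0.22. Its relative Chst7 was at 6.75 in the Cre-labelled library and 6.83 in the GFP-labelled library. Of the 1344 genes with a mean level under 7, as Chst7 has, the differences had an SD of 0.15, against 0.23 both from 7 to 9 and from 9 to 11. The part of the undescribed log transform in this smaller SD was not tested. Chst15, which adds a second sulfate to 4-sulfated residues, and Ust, which sulfates the uronic acid, differed by -0.06 and -0.10.

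The genes that turn chondroitin into dermatan sulfate were close to level. The epimerase genes Dse and Dsel differed by 0.12 and 0.13, with 12.45 and 10.98 in the Cre-labelled library against 12.33 and 10.85 in the GFP-labelled library. Chst14, the dermatan 4-O-sulfotransferase, differed by -0.08. All 3 stayed within the range that holds 90% of all genes.

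Heparan genes were centred on 0. Of the 13, 8 lay above 0 and 5 below, with a median of 0.02 and none past 1.5-fold. One gene stood apart by value: Glce, the epimerase that converts glucuronate to iduronate in heparan, had 11.68 in the Cre-labelled library and 12.13 in the GFP-labelled library, a difference of -0.45 (chromosome 9, 62057248 to 62122655, minus strand). Of all genes tested 1.99% had a lower difference. The polymerase subunits Ext1 and Ext2 went opposite ways by little. Ext1 had 11.52 in the Cre-labelled library and 11.36 in the GFP-labelled library, a difference of 0.16, and Ext2 had 12.10 and 12.21 in the Cre-labelled and GFP-labelled libraries, a difference of -0.10. Extl3, the transferase that commits a linker to heparan, had 11.72 in the Cre-labelled library and 11.54 in the GFP-labelled library, a difference of 0.18, the highest of the group. The other exostosin-like genes Extl1 and Extl2 differed by -0.27 and -0.08.

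Of the heparan sulfotransferase genes, 5 were among the 45 and are given here. Ndst1 and Ndst2, which replace acetyl groups with sulfate on the nitrogen, differed by 0.08 and 0.14. Hs2st1 differed by 0.02, Hs6st1 by 0.02 and Hs6st2 by 0.06. These 5 lay above 0, each within the range that holds 90% of all genes. The extracellular endosulfatases, which remove 6-O-sulfate, were level for Sulf1, with 12.05 in both libraries, and lower for Sulf2, with 12.14 in the Cre-labelled library and 12.34 in the GFP-labelled library, a difference of -0.20.

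The 3 lysosomal genes of the list differed little. Galns, the sulfatase deficient in Morquio syndrome type A, had 9.19 in the Cre-labelled library and 9.03 in the GFP-labelled library, a difference of 0.16. Arsb, the sulfatase that removes 4-sulfate from N-acetylgalactosamine, and Hexa, a subunit of hexosaminidase, differed by -0.05 and -0.06. Exons on the opposite strand cover 39.9% of the exonic length of Arsb and 12.8% of that of Hexa. Chst15 and Chpf2 are the other members with more than 10% of such overlap, and 34 of the 44 have none on the opposite strand.

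**Figure D2:**
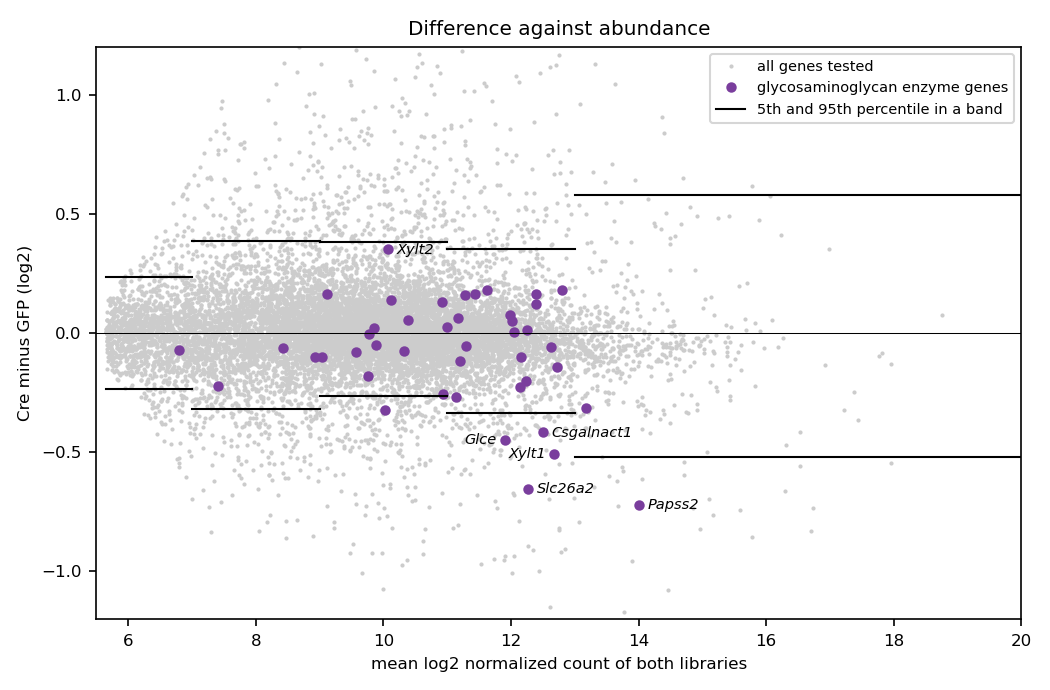
Cre minus GFP difference (log2) against the mean log2 normalized count of both libraries for all genes tested (grey) and the 44 glycosaminoglycan enzyme genes (purple), with black lines at the 5th and 95th percentile of all genes in 5 abundance bands. Slc26a2, Xylt1, Glce, Csgalnact1, Papss2 and, unlabelled at a mean near 10, Chsy3 lie below the line of their band, while Xylt2 lies just under its upper line. Beyond the axis lie 64 genes with a difference over 1.2 in size and 3 with a mean over 20.

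Within pairs of related enzymes the balance between the libraries can be read without the scaling of either library, since a common factor cancels. The log transform of the values is not described. Any effect of it that differs between genes of unlike level would not cancel. Levels were divided by exonic length for this. Xylt1 made up 65.0% of the summed level of Xylt1 and Xylt2 in the Cre-labelled library and 77.1% in the GFP-labelled library. Csgalnact1 made up 67.1% of its pair in the Cre-labelled library and 75.3% in the GFP-labelled library. Chst11 made up 72.3% of the level of Chst11 and Chst12 in the Cre-labelled library and 77.1% in the GFP-labelled library. In these pairs the gene that prevailed in the GFP-labelled library prevailed in the Cre-labelled library as well, by less.

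For the PAPS synthases the share of Papss2 was 85.6% in the Cre-labelled library and 89.1% in the GFP-labelled library, and here both genes were lower. Their summed level was 4044 normalized counts per kilobase in the Cre-labelled library and 6398 in the GFP-labelled library, a difference of -0.66. The summed level of the xylosyltransferase pair differed by -0.26 and that of the Csgalnact pair by -0.25, so the sum of each pair was lower although 1 gene of it was higher. The shares moved the other way for Chsy1 with Chsy3, at 91.4% in the Cre-labelled library and 88.3% in the GFP-labelled library, and for Ext1 with Ext2, at 37.8% in the Cre-labelled library and 33.5% in the GFP-labelled library. Sulf1 with Sulf2 moved that way too, at 32.8% in the Cre-labelled library and 29.8% in the GFP-labelled library. The shares of Chpf and Chst3 in their pairs were lower in the Cre-labelled library, as for Xylt1. Ndst1 with Ndst2 was nearly level, at 66.1% in the Cre-labelled library and 67.1% in the GFP-labelled library.

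**Figure D3:**
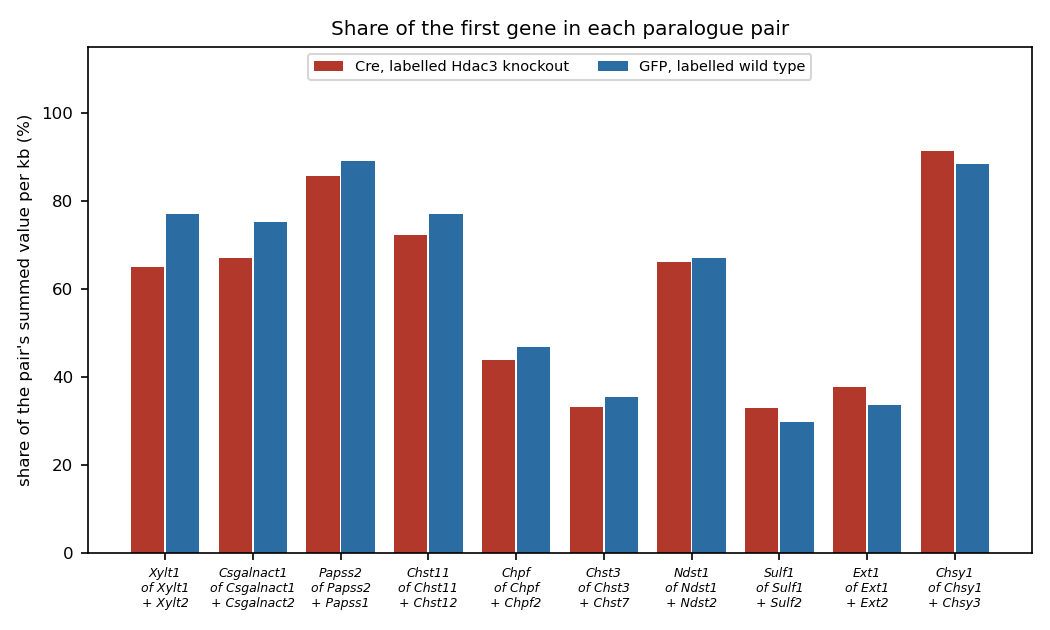
Share (%) of the first-named gene in the summed level per kilobase of each of 10 paralogue pairs, in the Cre-labelled (left bars) and GFP-labelled (right bars) library. The share of Xylt1 was 65.0% in the Cre-labelled library and 77.1% in the GFP-labelled library, and pairs are ordered by the log2 difference of the first gene minus that of the second, from -0.86 (Xylt1 and Xylt2) to 0.48 (Chsy1 and Chsy3).

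In the 5 lists of other pathway genes outside the 45, core proteins aside, no gene was past 1.5-fold in either direction. By that fold 0.952% of all genes tested were lower and 2.25% were higher, so few or none are looked for in lists this short. Of 16 further linker and nucleotide sugar genes 12 lay below 0, with a median of -0.06. Among them Gfpt1, the first enzyme of hexosamine synthesis, differed by -0.34. Pxylp1 (Acpl2 in the table), the phosphatase that removes the phosphate placed by Fam20b, was higher, at 9.24 in the Cre-labelled library and 8.95 in the GFP-labelled library, a difference of 0.29. Uap1, which makes UDP-N-acetylglucosamine, differed by 0.24.

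Keratan sulfate genes had 6 of 9 in the table, with a median of -0.09, and the widest values were -0.31 for the sulfotransferase gene Chst2 and 0.30 for the galactosyltransferase gene B4galt1. Of 11 other heparan genes 2 were in the table, Hs3st3b1, a 3-O-sulfotransferase gene, at -0.43, and the heparanase gene Hpse at 0.04. The 10 further lysosomal genes were split 5 to 5, with a median of 0.01 and a range from -0.25 (Arsk) to 0.15 (Gusb). Hyaluronan is made without linker or sulfate, and its 8 genes had a median of -0.0074, with the synthase genes Has1 and Has2 at 0.37 and 0.16.

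**Figure D4:**
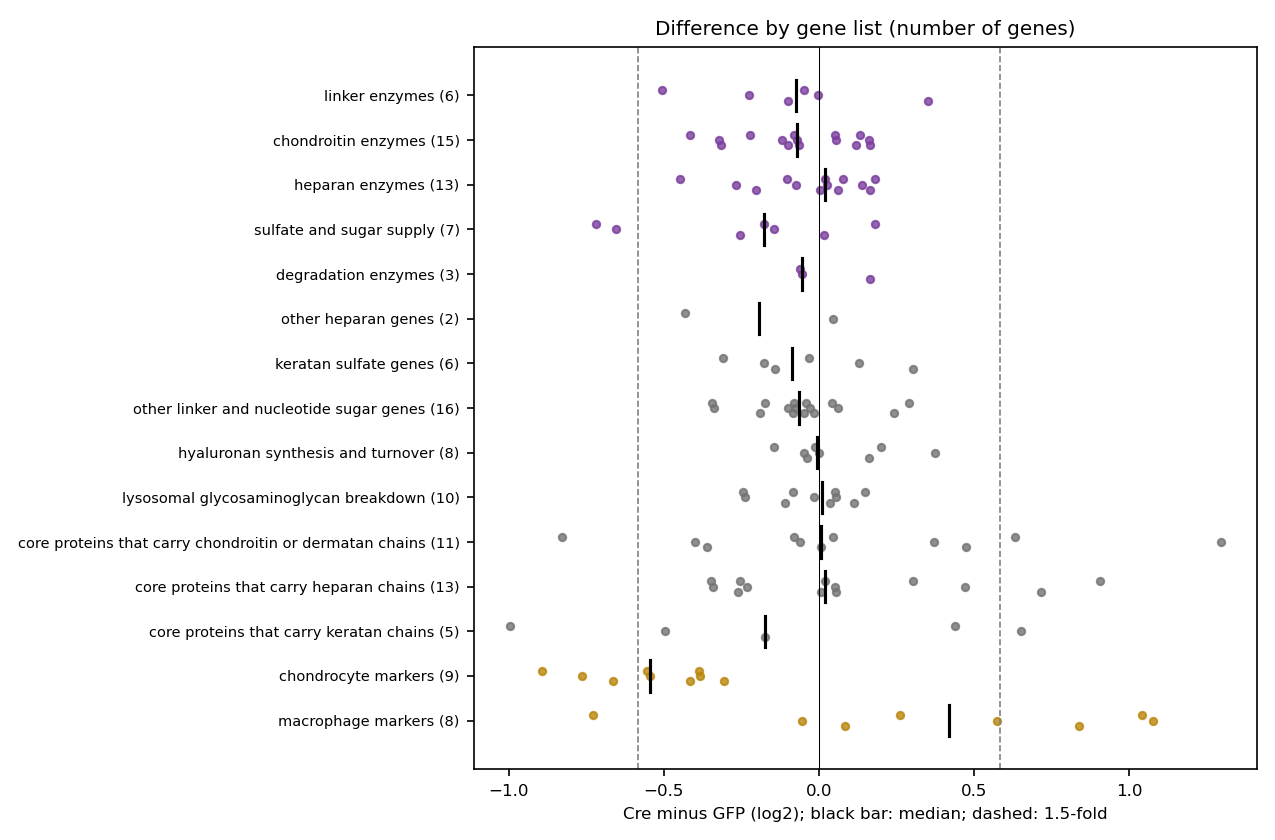
Cre minus GFP difference (log2) of each gene in the 5 enzyme groups (purple), in 5 other pathway lists and 3 lists of core proteins (grey) and in 2 marker lists (gold), with black bars at the medians and dashed lines at 1.5-fold. The supply group has a median of -0.18, the chondrocyte markers one of -0.55 and the macrophage markers one of 0.42.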

How the data were processed

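RNA from 1 culture per group was sequenced after TruSeq v2 mRNA library preparation, per the labels' protocols. Build mm10, bcl2fastq 1.8.4, TopHat2 2.0.6 and HTSeq appear in the submitters' processing notes. Neither strand setting nor annotation is given in the sources used here. The authors deposited log2 values of normalized counts for 13138 genes. The transform is not described, and a regularized log is inferred from a column heading. The deposited difference equals GFP minus Cre and was turned to Cre minus GFP. Depth is unknown, so no interval is given.

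Genes were kept from a mean log2 value of 5.64 upward, the log2 of 50. Members, lists, thresholds and motifs were chosen with earlier results of these data known. Every member is named, and of other lists up to 4 genes with the largest difference. Exonic lengths, coordinates and overlaps come from GENCODE M21 (GRCm38), and levels per kilobase divide linear values by the union of exons. Promoters come from RefSeq (GRCm38.p6). Python 3.11.15, pandas 2.3.3 and matplotlib 3.10.9 were used, and the counting of folds was tested on made data. Alternatives were other minimums, folds, scalings and the mean.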

Additional observations from a re-analysis of the deposited data

How the results depend on the processing

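The fold decided the counts: past a difference of 0.322, a smaller fold, 5 genes were lower and 1 was higher in the Cre-labelled library, and at 2-fold 0 were lower and 0 higher. No other alternative changed either 1.5-fold count. Scaling shifted all differences by 0.00041 (median), 0.0077 (equal totals) or 0.015 (equal totals without Rn45s and Lars2), and B3gat3 was the 1 member whose sign turned. Of 36 alternative group medians 35 stayed within 0.1. With a minimum 10 times higher, the chondroitin median moved to 0.052 over 11 genes, since Chst3, Chst7, Chst15 and Ust fell out. By the mean, heparan genes were at -0.03 and degradation genes at 0.02, opposite in sign to their medians. No paired analysis was possible because the labels put 1 library in each group.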

Other observations

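The core proteins that carry the chains differed by up to 1.30, in both directions. Of 11 measured genes for chondroitin or dermatan carriers, 1 was lower and 2 were higher by 1.5-fold in the Cre-labelled library, and the median was 0.01. Over all genes tested, 0.952% were lower and 2.25% higher by that fold. Among the 520 genes with a mean level of 13 or more, 4.04% were lower by it. Acan, the aggrecan gene, had 16.29 in the Cre-labelled library and 17.12 in the GFP-labelled library, a difference of -0.83. Vcan, which encodes the related large proteoglycan versican, had 13.79 in the Cre-labelled library and 13.16 in the GFP-labelled library, a difference of 0.63. Srgn, which encodes the proteoglycan serglycin, had 10.46 in the Cre-labelled library and 9.16 in the GFP-labelled library, a difference of 1.30. Dcn, the decorin gene, differed by 0.47. The macrophage markers ranged from -0.73 for Mrc1 to 1.08 for Emr1, with a median of 0.42 over 8 genes, and their part in the value of Srgn was not tested.

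Heparan carriers had 2 of 13 genes past 1.5-fold, both higher, where 2.25% of all genes tested were, and a median of 0.02. Sdc4 and Sdc1, genes of the transmembrane syndecans, differed by 0.90 and 0.71. Tgfbr3, the betaglycan gene, differed by 0.47, and Gpc6, a glypican gene, by -0.35. Of 5 keratan carriers, Omd differed by -0.997, Lum by 0.65, Fmod by -0.50 and Prelp by 0.44.

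Markers of other cells that the cultures could hold were also read. Fibroblast and perichondrial markers had a median of -0.14 over 8 genes and a summed level of 18.70 in the Cre-labelled library and 18.75 in the GFP-labelled library, as log2 of the sum. Endothelial markers had a median of 0.10 over 3 genes, skeletal muscle markers 0.31 over 5 and osteoblast markers -0.22 over 6. The 1 measured erythroid gene, Alas2, differed by 0.03.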
